A study of Mus musculus with 28 samples.

Results

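The 10 genes described here, Arntl, Clock, Nr1d1, Nr1d2, Per1, Per2, Per3, Cry1, Dbp and Bhlhe40, were listed by name as core parts of the circadian clock. The rule uses no measured value, but the list was drawn up with earlier results of these data known. All 10 are present among the 54532 genes of the count table, and all 10 passed the filter on low counts that kept 15923 genes. They were followed in 28 cultures of bone marrow-derived macrophages (BMDMs), cells grown from the marrow of adult C57/B6JB mice with M-CSF, plated overnight, washed and given fresh medium with calcium. Controls received no agonist (n = 5), VWF cultures received 10 µg/ml of plasma-derived von Willebrand factor, the large adhesive plasma protein that tethers platelets (n = 5), and LPS cultures received 100 ng/ml of bacterial lipopolysaccharide, a TLR4 agonist (n = 4), each for 3.5 h or 16 h. No allele or genotype differs between the groups, and the clock hour at which each culture was harvested is not given in the sources used here. The question was how much of the change in each gene between 3.5 h and 16 h was also seen in untreated cultures, and how much was seen only as a difference from the control of the same time.

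The clock is a transcriptional feedback loop. ARNTL (also called BMAL1) and CLOCK pair and bind E-boxes in the Per, Cry, Nr1d, Dbp and Bhlhe40 genes, PER and CRY proteins return to the nucleus to hold that pair back, and NR1D1 and NR1D2 (REV-ERBα and REV-ERBβ) repress Arntl through ROR elements. DBP activates D-box genes such as the Per genes, and BHLHE40 (DEC1) competes for E-boxes. Macrophages run this loop on their own in culture, serum or fresh medium can reset it, and several of its members, Per1 and Bhlhe40 among them, also answer directly to signals from outside the cell.

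Total counts per culture lay between 41131209 and 77699206, and single counts for the members ran from 3 (Nr1d1) to 14825 (Bhlhe40). Levels are given as CPM, reads of each gene relative to its library's total, scaled with TMM factors over all 28 cultures. TMM factors were 0.709 to 0.822 in LPS cultures and 0.993 to 1.24 in controls. Scaling by library size alone therefore moved the median log2 fold change of all genes to -0.27 with VWF and -0.63 with LPS at 3.5 h, to -0.14 and -0.65 at 16 h, to 0.37 and 0.47 for VWF against LPS at 3.5 h and 16 h, and to 0.12 for the difference between the VWF effects, and changes are given relative to TMM. One control culture at 16 h, replicate 5, stood apart from its group, with a median absolute log2 difference of 0.673 per gene, as did LPS replicate 4 at 16 h with 0.565, against 0.112 to 0.343 in the other 26 cultures. In bulk RNA, fewer cells of a type and less RNA per cell cannot be told apart. The sum of 8 macrophage markers was 5578 to 16611 CPM in controls over both times, the lowest being control replicate 5 at 16 h, and 18839 to 26448 CPM with VWF at 16 h, above every control. Lyz2 alone was 13562 to 18718 CPM in these VWF cultures, against 3187 to 12468 CPM in controls. Cd68, another of the 8, was 577 to 876 CPM in them, within the 206 to 1164 CPM of controls. T cell, B cell and erythroid markers stayed at or under 0.339 CPM in every culture, and the neutrophil markers at or under 1.18 CPM. Markers listed for dendritic cells (Flt3, Zbtb46, Xcr1) summed to 0.578 to 1.69 CPM in controls, 13.2 to 19.8 CPM with VWF and 22 to 27.6 CPM with LPS at 3.5 h, and 13.3 to 30.4 CPM with LPS at 16 h. The high sums were mostly Xcr1, which reached 29.7 CPM, while Flt3 stayed at or under 0.21 CPM and Zbtb46 at or under 3.45 CPM in every culture. The endothelial pair Cdh5 and Kdr summed to 0.681 to 1.26 CPM in controls at 16 h, 5.94 to 10.7 CPM in controls at 3.5 h and 44.5 to 68.6 CPM with LPS at 16 h. That last sum was mostly Kdr, which reached 67.4 CPM, while Cdh5 stayed at or under 2.91 CPM in every culture. Stromal markers (Col1a1, Col3a1, Pdgfra) summed to 6.24 to 189 CPM, with ranges that overlapped between all groups. The part of these in the results was not tested.

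The regulatory letters named above can be read in the RefSeq promoter windows (GRCm38.p6) that were given for 8 of the 10 genes, 250 bases before to 50 bases after a start. Both strands were searched for the E-box CACGTG, which is its own reverse complement and lay in 7.15% of 32851 such windows, for the related CACGTT (4.68%), for the D-box TTATGTAA (0.938%), for the CRE TGACGTCA (1.79%) and the TGACGT it contains (7.51%), and for the ROR element cores TAGGTCA or TGGGTCA (6.45%). Whether such matches go with how a gene moved in the cultures was not tested. The 250 bases before the start of Per1, Cry1 and Per3 are shown as examples of windows with matches, in capitals with all else in lower case, 5′ to 3′ on the gene's strand.
Per1 first start, chr11:69098699-69098948, plus strand: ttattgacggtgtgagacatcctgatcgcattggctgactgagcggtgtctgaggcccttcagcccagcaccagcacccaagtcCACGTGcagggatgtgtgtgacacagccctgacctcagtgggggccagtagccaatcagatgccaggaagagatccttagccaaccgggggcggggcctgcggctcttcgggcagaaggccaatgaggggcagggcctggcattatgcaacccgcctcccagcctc
Per1 second start, chr11:69099902-69100151, plus strand: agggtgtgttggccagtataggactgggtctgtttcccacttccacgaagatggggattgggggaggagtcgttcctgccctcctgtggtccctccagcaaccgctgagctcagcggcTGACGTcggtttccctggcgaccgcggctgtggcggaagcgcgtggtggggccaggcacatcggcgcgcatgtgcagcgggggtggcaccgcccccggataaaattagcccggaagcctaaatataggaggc
Cry1, chr10:85185055-85185304, minus strand: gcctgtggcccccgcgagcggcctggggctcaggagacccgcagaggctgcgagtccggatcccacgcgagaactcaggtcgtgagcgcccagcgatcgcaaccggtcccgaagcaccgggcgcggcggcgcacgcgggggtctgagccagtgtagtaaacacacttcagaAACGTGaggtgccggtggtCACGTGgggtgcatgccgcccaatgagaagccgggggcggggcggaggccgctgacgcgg
Per3, chr4:151044666-151044915, minus strand: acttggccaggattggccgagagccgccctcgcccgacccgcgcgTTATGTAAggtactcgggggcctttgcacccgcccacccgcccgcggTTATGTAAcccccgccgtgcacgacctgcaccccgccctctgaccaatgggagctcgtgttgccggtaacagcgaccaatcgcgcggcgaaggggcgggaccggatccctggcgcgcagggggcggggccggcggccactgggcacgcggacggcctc
Counted from the start, with negative positions before it, the E-box lies from -166 to -161 at the first Per1 start and from -60 to -55 at Cry1, where CACGTT on the other strand (printed AACGTG) also lies from -79 to -74. The TGACGT lies from -132 to -127 at the second Per1 start. Per3 holds the D-box letters from -205 to -198 and from -158 to -151. Of the other windows, that of Nr1d1 holds CACGTT on the other strand from -28 to -23, and the second window of Arntl holds TAGGTCA from 30 to 36. These are matches of letters only.

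Per length, Bhlhe40 was by far the most abundant member in untreated cultures at 3.5 h, at 113 ± 24.8 TPM (a length-scaled level; mean ± SD, n = 5), followed by Cry1 at 24.5 ± 3.77 and Nr1d2 at 14.7 ± 1.61 TPM. Per1 (13.9 ± 3.03 TPM) overlapped with Nr1d2, and Clock (6.96 ± 1.45) with Dbp (6.06 ± 0.883). Per2 (3.70 ± 1.5), Arntl (2.91 ± 0.508) and Nr1d1 (2.75 ± 0.791) overlapped in turn, and Per3 was lowest at 1.31 ± 0.163 TPM, below every Nr1d1 value. This order did not carry over to LPS at 16 h, where Per1 had the highest mean, 12.0 ± 2.99 TPM (n = 4), overlapping with Bhlhe40 at 11.5 ± 3.29 and Nr1d2 at 10.8 ± 2.65. Under the study's own filter of 10 TPM, 5 of the 10 members, Arntl, Clock, Nr1d1, Per2 and Per3, would have been left out of every comparison, since no culture reached that level.

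**Figure D1:**
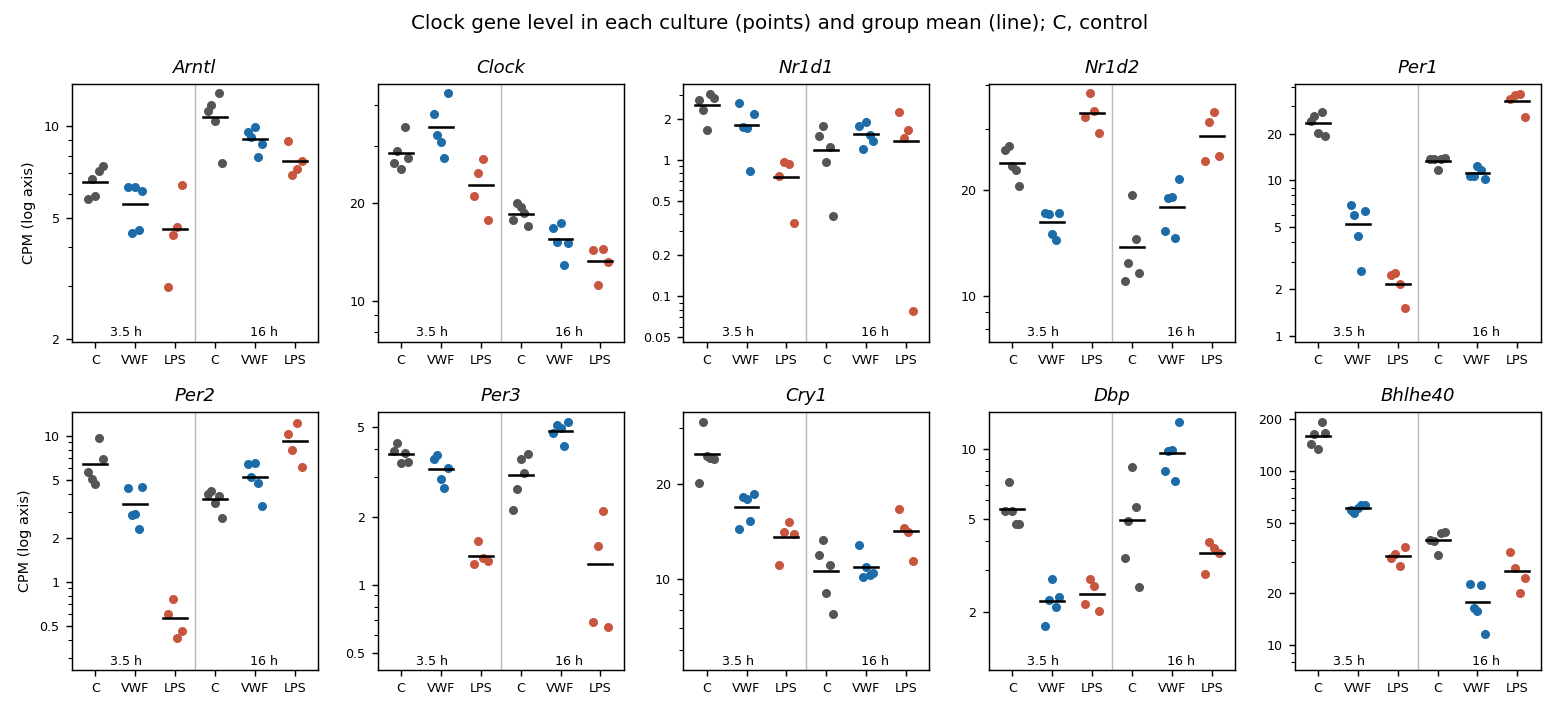
Level of each clock gene in CPM (log axis) in the 28 cultures, with controls (C) in grey, VWF in blue and LPS in red, 3.5 h left and 16 h right of the line. Points are cultures and black lines group means; with LPS, Per1 lies at 1.5 to 2.53 CPM at 3.5 h and at 25.7 to 35.9 CPM at 16 h, below and above all controls of the same time.

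Untreated macrophages themselves changed between the times. From 3.5 h to 16 h in controls, 7 of the 10 clock genes fell (Clock, Nr1d1, Nr1d2, Per1, Per2, Cry1 and Bhlhe40) and 1, Arntl, rose, at an adjusted p under 0.05 in edgeR's quasi-likelihood test. Of all 15923 genes tested, 14.9% fell and 15.3% rose by the same rule. The median log2 fold change of the 10 genes was -0.80, against 0.02 over all genes. Of the members, 3 passed the test with a change of over 2-fold (log2 fold change over 1 in size), Nr1d1, Cry1 and Bhlhe40, against 10.3% of all genes. Bhlhe40 fell most, by 1.98 ± 0.12 on the log2 scale (SE, adjusted p = 1.69e-06). The log2 fold changes of Per3 (-0.31 ± 0.18, adjusted p = 0.217) and Dbp (-0.15 ± 0.28, adjusted p = 0.708) did not pass. The call for Nr1d1 was lost when control replicate 1, 2, 4 or 5 at 3.5 h or replicate 3 or 4 at 16 h was left out (adjusted p 0.0507 to 0.0707). Without control replicate 5 at 16 h, 8 members were again called, with Nr1d1 at -0.88 ± 0.23.

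After 3.5 h of VWF, 6 of the 10 genes were lower than in controls of that time and none was higher, where 16.5% of all genes were lower and 17.5% higher. The 6 were Nr1d2, Per1, Per2, Cry1, Dbp and Bhlhe40, and Per1, Dbp and Bhlhe40 passed the test with a change of over 2-fold (14.7% of all genes did). The median log2 fold change of the 10 genes was -0.55, against -0.01 over all genes. Of the calls over all genes, 51.4% were higher, and 26.8% under scaling by library size, which called 8 members lower and none higher. Clock, at 0.29 ± 0.13 (adjusted p = 0.101), was the one member with a positive estimate, and it passed the test without control replicate 4 or VWF replicate 4 (adjusted p 0.0292 to 0.049).

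After 3.5 h of LPS, 9 of the 10 genes were lower than in the same controls and 1 was higher, Nr1d2, whose direction flipped to -0.12 under scaling by library size. Over all genes 28.6% were lower and 24.8% higher. The median log2 fold change of the 10 genes was -1.36, against -0.05 over all genes, and 6 of them (Nr1d1, Per1, Per2, Per3, Dbp and Bhlhe40) passed the test with a change of over 2-fold, against 26.8% of all genes. The share of calls that were higher was 46.5%, and 18.1% under scaling by library size. Arntl and Clock lost their call when single cultures were left out: Arntl without control replicate 2, 4 or 5 or LPS replicate 1, 2 or 3 (adjusted p 0.0694 to 0.086), and Clock without control replicate 1, 2, 4 or 5 or LPS replicate 1 or 4 (adjusted p 0.0617 to 0.143). With every culture kept, DESeq2 called 8 members lower, without Clock (adjusted p = 0.0762). Scaling by RLE factors in place of TMM called 7 lower, without Clock (adjusted p = 0.0773) and Arntl (adjusted p = 0.0571). VWF and LPS were compared with the same control cultures, so their lists are not independent of each other.

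**Figure D2:**
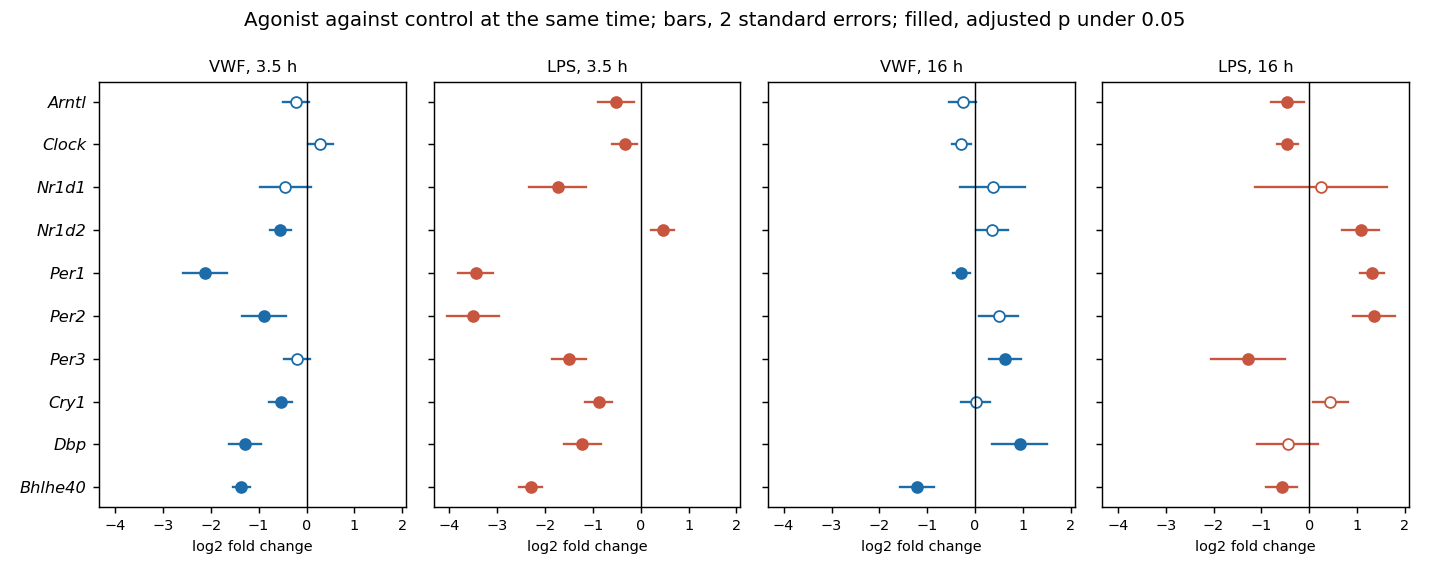
Log2 fold change of each clock gene against the control of the same time, for VWF (blue) and LPS (red) at 3.5 h and 16 h, with bars of 2 standard errors and filled points at an adjusted p under 0.05. At 3.5 h, 6 genes with VWF and 9 with LPS are filled and left of the line; at 16 h the points of Per1 and Per2 with LPS lie at 1.31 and 1.35, right of it.

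By 16 h of VWF the picture had become small and mixed, with 2 members lower (Per1 and Bhlhe40) and 2 higher (Per3 and Dbp), where 11% of all genes were lower and 9.88% higher. Bhlhe40 alone passed the test with a change of over 2-fold, against 9.11% of all genes. The median log2 fold change was 0.18 over the 10 genes and -0.03 over all genes. Of all calls 47.3% were higher, and 32.7% under scaling by library size, which left 1 member higher and 2 lower. The calls for Per1 and Dbp were weak. That of Per1 was lost without control replicate 1, 2 or 4 or VWF replicate 1, 2, 4 or 5 (adjusted p 0.0629 to 0.132), and that of Dbp without control replicate 1, 2 or 4 or VWF replicate 1, 2, 3 or 5 (adjusted p 0.0617 to 0.102). Per3 lost its call without control replicate 2 or VWF replicate 2 (adjusted p 0.0538 to 0.0551). Without control replicate 5, Arntl (-0.36 ± 0.09, adjusted p = 0.0135) and Clock (-0.31 ± 0.09, adjusted p = 0.0245) were called lower as well, and the count over all genes went from 3325 to 5045. Nr1d2 was called higher without control replicate 3 (0.51, adjusted p = 0.0305) and Per2 without VWF replicate 5 (0.62, adjusted p = 0.0284).

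With LPS at 16 h, 4 members were lower than in controls of that time (Arntl, Clock, Per3 and Bhlhe40) and 3 higher (Nr1d2, Per1 and Per2), where 20.8% of all genes were lower and 22% higher. Nr1d2, Per1, Per2 and Per3 passed the test with a change of over 2-fold, against 26.5% of all genes. The median log2 fold change was -0.10 over the 10 genes and -0.03 over all genes. Of all calls 51.5% were higher, and 20.8% under scaling by library size, under which 2 members were higher and 5 lower and Nr1d2 no longer passed (0.44, adjusted p = 0.119). Arntl lost its call without control replicate 1, 2, 3 or 4 or LPS replicate 2, 3 or 4 (adjusted p 0.071 to 0.127) and Per3 without LPS replicate 1 (-1.08, adjusted p = 0.057). Without LPS replicate 4, Cry1 was called higher (0.53, adjusted p = 0.038). Leaving out both cultures that stood apart gave 8 called members in place of 7, Cry1 (0.43 ± 0.13, adjusted p = 0.0157) being the added one.

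Per1 (chr11:69095217-69109960, GRCm38, plus strand) encodes the PER protein best known as an immediate-early clock gene. Control cultures held 24.1, 26.0, 20.1, 27.5 and 19.2 CPM at 3.5 h and 13.8, 13.8, 11.7, 13.8 and 13.9 CPM at 16 h, without overlap. At 3.5 h, VWF cultures were at 6.98, 5.97, 4.36, 2.60 and 6.39 CPM and LPS cultures at 2.44, 2.53, 2.14 and 1.5 CPM, so that all 3 groups were separate in the order control, VWF, LPS. Against control, Per1 fell by 2.13 ± 0.23 on the log2 scale with VWF (adjusted p = 1.03e-05) and by 3.45 ± 0.18 with LPS (adjusted p = 7.98e-09). At 16 h the order had turned. VWF cultures held 10.7, 10.7, 12.4, 11.7 and 10.2 CPM, of which only 12.4 CPM lay inside the control range of 11.75 to 13.95 CPM. LPS cultures held 33.7, 35.3, 35.9 and 25.7 CPM, above every control of that time, and 3 of the 4 were also above every control at 3.5 h. Per1 was then 0.29 ± 0.09 lower with VWF (adjusted p = 0.0495) and 1.31 ± 0.13 higher with LPS (adjusted p = 1.67e-05) on the log2 scale.

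Per2 (chr1:91415982-91459324, minus strand), the paralogue whose protein is the main brake on the ARNTL and CLOCK pair together with the CRY proteins, went the same way at a lower level. Controls held 5.65, 5.06, 4.67, 9.58 and 6.98 CPM at 3.5 h and 4.01, 4.21, 3.47, 3.88 and 2.72 CPM at 16 h. LPS cultures held 0.602, 0.761, 0.412 and 0.461 CPM at 3.5 h, on counts of 15 to 31 reads, and 10.3, 8.0, 12.3 and 6.08 CPM at 16 h, below and above all controls of the same time. With VWF the values were 4.38, 2.84, 2.91, 2.30 and 4.48 CPM at 3.5 h, below all controls, and 6.44, 5.18, 6.50, 4.78 and 3.31 CPM at 16 h, overlapping with them. Per2 fell at 3.5 h by 0.88 ± 0.23 on the log2 scale with VWF (adjusted p = 0.0103) and by 3.50 ± 0.27 with LPS (adjusted p = 3.11e-07). At 16 h it was 1.35 ± 0.22 higher with LPS (adjusted p = 0.000723), and the difference with VWF was 0.49 ± 0.20 (adjusted p = 0.114).

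Per3 (chr4:151003652-151044665, minus strand), a PER protein with a lesser part in rhythm than the other two, did not follow them. With LPS it was low at both times, at 1.23, 1.57, 1.32 and 1.27 CPM at 3.5 h and 0.687, 1.48, 2.12 and 0.653 CPM at 16 h, against 3.46 to 4.26 and 2.15 to 3.79 CPM in controls. The log2 fold changes were -1.5 ± 0.18 (adjusted p = 1.36e-05) and -1.28 ± 0.39 (adjusted p = 0.0215). VWF cultures held 2.69 to 3.76 CPM at 3.5 h, overlapping with controls (-0.20 ± 0.14, adjusted p = 0.329), and 4.68, 5.10, 4.96, 4.10 and 5.25 CPM at 16 h, above every control (0.63 ± 0.17, adjusted p = 0.0204).

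Cry1 (chr10:85131700-85185064, minus strand), the strongest of the CRY repressors, showed its largest change with time in untreated cells. Controls went from 20.1, 31.4, 24.4, 24.1 and 23.9 CPM at 3.5 h to 11.9, 13.3, 9.03, 11.1 and 7.78 CPM at 16 h, a fall of 1.22 ± 0.16 on the log2 scale (adjusted p = 0.000269). At 3.5 h both agonist groups lay below all controls, at 14.4 to 18.6 CPM with VWF (-0.54 ± 0.12, adjusted p = 0.00441) and 11.1 to 15.1 CPM with LPS (-0.88 ± 0.14, adjusted p = 0.000163). At 16 h neither passed the test, with VWF at 10.2 to 12.8 CPM (0.01 ± 0.15, adjusted p = 0.97) and LPS at 11.4 to 16.7 CPM (0.44 ± 0.18, adjusted p = 0.0749).

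Bhlhe40 (chr6:108660629-108666925, plus strand), an E-box repressor also used by immune cells outside the clock, was lower with both agonists at both times. Controls held 143, 164, 134, 190.5 and 165 CPM at 3.5 h and 40.4, 39.7, 32.8, 43.9 and 44.6 CPM at 16 h. VWF cultures held 59.4, 57.4, 61.2, 64.0 and 64.1 CPM at 3.5 h and 22.4, 16.3, 15.7, 22.1 and 11.6 CPM at 16 h, below every control of the same time. LPS cultures held 31.8, 33.2, 28.4 and 36.7 CPM at 3.5 h and 34.1, 27.8, 20 and 24.3 CPM at 16 h, the later set overlapping with controls in 1 culture. The range of the 16 h controls overlapped with that of LPS cultures at 3.5 h. Bhlhe40 fell with VWF by 1.36 ± 0.09 at 3.5 h (adjusted p = 1.2e-07) and by 1.21 ± 0.18 at 16 h (adjusted p = 0.000588) on the log2 scale. With LPS it fell by 2.30 ± 0.12 at 3.5 h (adjusted p = 4.59e-09) and by 0.58 ± 0.16 at 16 h (adjusted p = 0.0162). The antisense gene 0610040F04Rik overlaps 2.51% of its exon length.

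Dbp (chr7:45705088-45710203, plus strand), the D-box activator whose level follows ARNTL and CLOCK activity closely in many tissues, was lower with both agonists at 3.5 h and parted between them at 16 h. At 3.5 h it was at 5.42, 7.20, 5.4, 4.77 and 4.74 CPM in controls, 1.74, 2.25, 2.76, 2.09 and 2.31 CPM with VWF and 2.15, 2.75, 2.58 and 2.02 CPM with LPS. Both agonist groups lay below every control and overlapped with each other, with falls of 1.29 ± 0.17 (VWF, adjusted p = 6.88e-05) and 1.22 ± 0.19 (LPS, adjusted p = 0.000143) on the log2 scale. At 16 h the controls were spread widely, at 3.39, 4.89, 8.36, 5.61 and 2.56 CPM, the lowest being replicate 5. VWF cultures were at 8.04, 9.80, 9.82, 7.23 and 13.0 CPM, overlapping with 1 control (0.93 ± 0.29, adjusted p = 0.0425), and LPS cultures at 2.90, 3.99, 3.75 and 3.58 CPM, within the control range (-0.45 ± 0.32, adjusted p = 0.287). Without replicate 5 the difference with VWF was 0.77 ± 0.24 (adjusted p = 0.0307). Exons of Sphk2 on the other strand cover 18% of the exon length of Dbp, and the strand setting of the counting is not given. Sphk2 fell with both agonists at 3.5 h (-0.35 and -0.81) and rose at 16 h by 0.25 with VWF and 1.34 with LPS. Its estimates had the same sign as those for Dbp in these comparisons, except with LPS at 16 h. Sphk2 was also higher, at 54.4 to 60.9 CPM in controls at 3.5 h, against 4.74 to 7.20 CPM for Dbp. With LPS at 16 h Sphk2 was at 176 to 210 CPM, against 2.90 to 3.99 CPM for Dbp. Whether reads from Sphk2 entered the counts of Dbp was not tested.

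Nr1d1 (chr11:98767932-98775333, minus strand), the REV-ERBα repressor and a direct E-box target, had low counts, with 3 to 235 reads per culture. Controls held 2.73, 2.31, 1.67, 3.02 and 2.85 CPM at 3.5 h and 1.49, 1.78, 0.967, 1.25 and 0.386 CPM at 16 h. LPS cultures held 0.760, 0.958, 0.935 and 0.346 CPM at 3.5 h, below all controls, a fall of 1.74 ± 0.30 on the log2 scale (adjusted p = 0.000371). At 16 h they held 2.26, 1.46, 1.67 and 0.0783 CPM, the last being replicate 4 with 3 counts, and the difference from control was 0.25 ± 0.69 (adjusted p = 0.804). VWF cultures held 2.62, 1.73, 1.72, 0.828 and 2.18 CPM at 3.5 h (-0.44 ± 0.27, adjusted p = 0.256) and 1.76, 1.20, 1.89, 1.52 and 1.38 CPM at 16 h (0.37 ± 0.34, adjusted p = 0.535), overlapping with controls at both times. Exons of Thra on the other strand cover 8.55% of its exon length, and the log2 fold change of Thra with LPS at 3.5 h was -0.26 (adjusted p = 0.127).

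Nr1d2 (chr14:18204054-18239127, minus strand), the REV-ERBβ paralogue with an overlapping role, separated the agonists. At 3.5 h controls held 26.0, 26.8, 23.5, 22.8 and 20.6 CPM, VWF cultures 17.2, 17.1, 15.0, 14.4 and 17.2 CPM and LPS cultures 32.3, 37.9, 33.7 and 29.1 CPM, with no overlap between any of the groups. The log2 fold changes were -0.55 ± 0.11 with VWF (adjusted p = 0.00127) and 0.46 ± 0.12 with LPS (adjusted p = 0.00533, and -0.12 under scaling by library size). At 16 h controls held 11, 12.4, 19.4, 14.5 and 11.6 CPM, VWF cultures 15.3, 19.0, 19.1, 14.6 and 21.5 CPM and LPS cultures 24.2, 31.4, 33.5 and 25.1 CPM. Only the LPS cultures lay above every control, with 1.07 ± 0.19 (adjusted p = 0.000967), and the estimate with VWF was 0.35 ± 0.17 (adjusted p = 0.18).

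Arntl and Clock encode the activating pair. Arntl (chr7:113207465-113314126, plus strand) held 5.77, 6.68, 5.89, 7.10 and 7.40 CPM in controls at 3.5 h and 11.2, 11.7, 10.4, 12.8 and 7.58 CPM at 16 h, a rise of 0.71 ± 0.15 on the log2 scale (adjusted p = 0.00361). LPS cultures held 2.96, 4.4, 4.65 and 6.40 CPM at 3.5 h (-0.52 ± 0.19, adjusted p = 0.0382) and 8.90, 6.90, 7.25 and 7.70 CPM at 16 h (-0.46 ± 0.17, adjusted p = 0.0479). Both sets overlapped with controls, at 16 h only with control replicate 5 (7.58 CPM), which stood apart from its group. With VWF the estimates were -0.22 ± 0.14 at 3.5 h and -0.26 ± 0.14 at 16 h, and neither passed. Clock (chr5:76209868-76304792, minus strand) went from 25.5 to 34.4 CPM in controls at 3.5 h to 17.0 to 20 CPM at 16 h, a fall of 0.62 ± 0.10 (adjusted p = 0.000705), so that the 2 partners of the pair moved in opposite directions. LPS cultures held 17.7 to 27.3 CPM at 3.5 h (-0.34 ± 0.13, adjusted p = 0.0481) and 11.2 to 14.4 CPM at 16 h, below every control (-0.46 ± 0.11, adjusted p = 0.00771). VWF cultures held 27.5 to 43.6 CPM at 3.5 h and 12.9 to 17.4 CPM at 16 h (-0.29 ± 0.10, adjusted p = 0.0572).

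The change with time within each treatment shows which part was shared with untreated cells. Arntl rose in all 3 treatments, by 0.71 ± 0.15 in controls, 0.71 ± 0.13 with VWF and 0.75 ± 0.23 with LPS on the log2 scale. The agonist effects on it did not differ between the times by the test, with differences of -0.01 ± 0.20 for VWF and 0.04 ± 0.26 for LPS (adjusted p = 0.986 and 0.93). Clock also fell in all 3, by 0.62 ± 0.10, 1.15 ± 0.13 and 0.77 ± 0.16. Per1 and Per2 went against the controls. Where controls fell by 0.80 ± 0.12 (Per1) and 0.80 ± 0.21 (Per2), VWF cultures rose by 1.08 ± 0.21 and 0.63 ± 0.23, and LPS cultures by 3.92 ± 0.21 and 4.03 ± 0.31. Dbp rose by 2.10 ± 0.18 with VWF (adjusted p = 9.2e-07) and by 0.58 ± 0.21 with LPS (adjusted p = 0.0403). Cry1 fell by 1.22 ± 0.16 in controls and 0.62 ± 0.11 with VWF, and the value with LPS was 0.07 ± 0.15 (adjusted p = 0.739). Bhlhe40 fell by 1.98 ± 0.12 in controls and 1.79 ± 0.16 with VWF, against -0.29 ± 0.17 with LPS (adjusted p = 0.178). Of these calls, that of Per2 with VWF was lost without VWF replicate 2, 3 or 4 at 3.5 h or 1, 2 or 3 at 16 h (adjusted p 0.0669 to 0.0907), and that of Dbp with LPS without LPS replicate 1, 3 or 4 at 3.5 h or 2 or 3 at 16 h (adjusted p 0.0535 to 0.114). That of Arntl with LPS was lost without LPS replicate 1 at 16 h (adjusted p = 0.0575), and without that culture Bhlhe40 was called lower with LPS (-0.44, adjusted p = 0.0467).

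**Figure D3:**
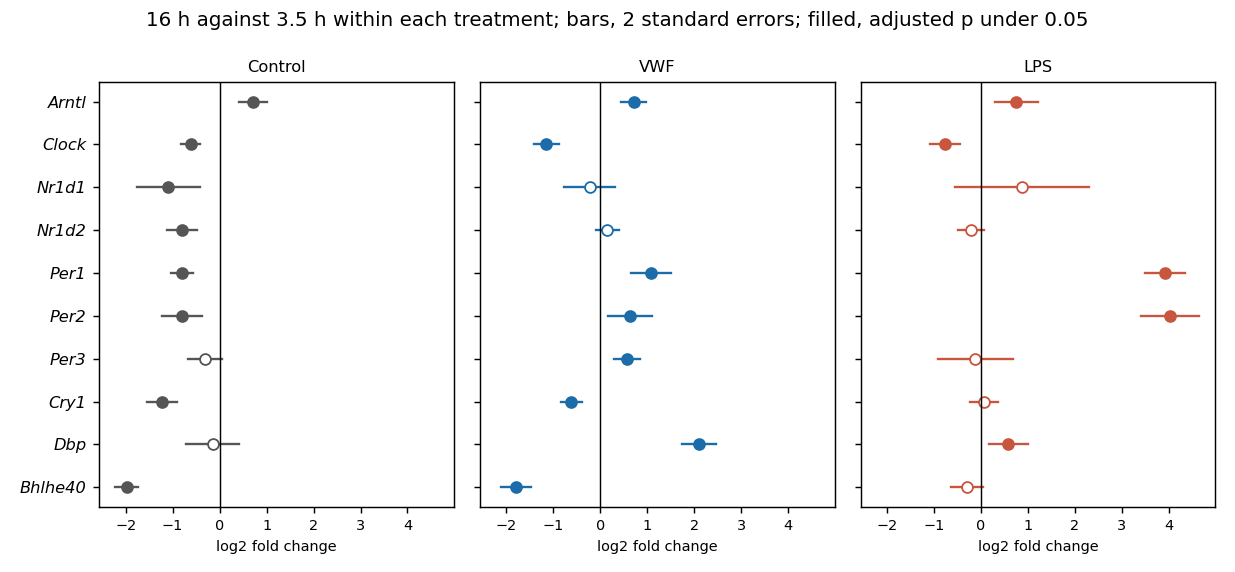
Log2 fold change from 3.5 h to 16 h of each clock gene within controls (grey), VWF (blue) and LPS (red) cultures, with bars of 2 standard errors and filled points at an adjusted p under 0.05. Arntl lies at 0.71, 0.71 and 0.75 and Clock left of 0 in all 3 panels, while Per1 lies at -0.80, 1.08 and 3.92.

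Testing the difference between the effects at 16 h and 3.5 h directly sets the control drift aside. Higher here means a more positive log2 fold change against control at 16 h than at 3.5 h, not a stronger effect. A weaker fall, as for Bhlhe40 with LPS, thus counts as higher. For VWF, 6 of the 10 genes had a higher effect at 16 h (Nr1d2, Per1, Per2, Per3, Cry1 and Dbp) and 1 a lower one (Clock), where 11.5% of all genes were higher and 12.4% lower. The median difference was 0.85 over the 10 genes and 0.00 over all genes. It was largest for Dbp, at 2.24 ± 0.35 on the log2 scale (adjusted p = 4.83e-05), and for Per1, at 1.87 ± 0.26 (adjusted p = 1.23e-05). Of all calls 48.1% were higher, and 58.6% under scaling by library size, which kept 6 members higher and took the call from Clock (-0.43, adjusted p = 0.181). For LPS, 5 genes had a higher effect at 16 h (Nr1d2, Per1, Per2, Cry1 and Bhlhe40) and none a lower one, where 18.5% of all genes were higher and 18.6% lower. The median difference was 1.01 over the 10 genes and 0.02 over all genes. Per1 and Per2 had differences of 4.72 ± 0.22 (adjusted p = 5.43e-11) and 4.83 ± 0.37 (adjusted p = 1.4e-08). Nr1d1 had 1.96 ± 0.78 (adjusted p = 0.0575), and passed without LPS replicate 4 or control replicate 2 at 16 h (adjusted p 0.00185 to 0.0487). The call of Cry1 for VWF was lost without any of 5 cultures (control replicate 2 and VWF replicates 1 and 4 at 3.5 h, control replicate 3 and VWF replicate 1 at 16 h; adjusted p 0.061 to 0.0747). That of Nr1d2 for LPS was lost without any of 13 of the 18 cultures (adjusted p 0.0523 to 0.11), all but control replicate 5 and LPS replicate 2 at 3.5 h and control replicate 3 and LPS replicates 1 and 4 at 16 h. Dbp was called for LPS without control replicate 3 at 16 h (1.01, adjusted p = 0.0181).

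VWF and LPS cultures were also compared with each other. At 3.5 h, 6 members were higher with VWF than with LPS (Clock, Nr1d1, Per1, Per2, Per3 and Bhlhe40) and 1 lower (Nr1d2), where 18% of all genes were higher and 16.3% lower, and of the calls 52.4% were higher, or 82% under scaling by library size. Per2 differed most, by 2.59 ± 0.28 on the log2 scale (adjusted p = 1.97e-05), while Dbp differed by -0.09 ± 0.20 (adjusted p = 0.76, -0.49 to 0.30 at 2 standard errors). Cry1, at 0.32 ± 0.12 (adjusted p = 0.0658), passed without VWF replicate 1 (0.36, adjusted p = 0.0488). At 16 h, 2 members were higher with VWF (Per3, by 1.97 ± 0.34, and Dbp, by 1.44 ± 0.19; adjusted p = 0.00072 and 0.000124) and 5 lower (Nr1d2, Per1, Per2, Cry1 and Bhlhe40), where 23.3% of all genes were higher and 24% lower. Per1 was lower by 1.54 ± 0.12 (adjusted p = 2.06e-06). The scaling mattered here: of all calls 49.3% were higher, and 75.1% under scaling by library size, under which 4 members were higher and 1, Per1, lower, with Cry1 flipping from -0.37 to 0.09. Per2 lost its call without LPS replicate 1 or 3 (adjusted p 0.0531 to 0.065), Bhlhe40 without VWF replicate 2, 3 or 5 or LPS replicate 1 or 2 (adjusted p 0.08 to 0.135), and Cry1 without VWF replicate 2, 3, 4 or 5 or LPS replicate 1, 2 or 3 (adjusted p 0.0646 to 0.123). Without LPS replicate 1 the count of members called went from 7 to 4.

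A list of 25 further clock genes holds paralogues, ROR receptors, D-box factors, kinases, ubiquitin ligases, corepressors and outputs, of which 22 passed the filter on low counts. Hlf, a D-box factor at 0.574 CPM or less in every culture, was among those that did not pass. In controls 2 of the 22 rose and 8 fell from 3.5 h to 16 h, where 15.3% and 14.9% of all genes did. At 3.5 h, 6 were higher and 10 lower with VWF (17.5% and 16.5% of all genes), and likewise 6 and 10 with LPS (24.8% and 28.6%). At 16 h, 4 were higher and 5 lower with VWF (9.88% and 11% of all genes), and 6 higher and 5 lower with LPS (22% and 20.8%). Their median log2 fold changes were -0.20 and -0.14 at 3.5 h and -0.08 and 0.18 at 16 h, for VWF and LPS respectively, against -0.55, -1.36, 0.18 and -0.10 for the 10 members.

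The partners in the activating arm and its repressors followed patterns of their own. Npas2, the paralogue that can replace Clock, was lower with both agonists at both times, at 2.07 ± 0.445 CPM in controls, 0.350 ± 0.186 with VWF and 0.239 ± 0.0544 with LPS at 3.5 h. At 16 h it was at 3.21 ± 1.36, 0.281 ± 0.206 and 0.30 ± 0.244 CPM, and the log2 fold changes were -3.54 ± 0.47 (VWF, adjusted p = 0.000282) and -3.42 ± 0.54 (LPS, adjusted p = 0.000524). Cry2, the other CRY repressor, rose with VWF at 3.5 h by 0.68 ± 0.13 (adjusted p = 0.000923) and fell with LPS by 0.67 ± 0.15 (adjusted p = 0.00204), the opposite of Nr1d2. The call of Cry2 with VWF at 3.5 h did not hold under scaling by library size (adjusted p = 0.0532). At 16 h Cry2 was called higher with VWF, at a mean of 7.11 against 5.23 CPM in controls, a call lost without any of 5 single cultures (adjusted p 0.0504 to 0.0757). With LPS at 16 h it did not pass in edgeR's test with all cultures. There it was called higher under DESeq2 (0.52, adjusted p = 0.0165) and without LPS replicate 4 (0.69, adjusted p = 0.00315). Bhlhe41 (DEC2) and Ciart, 2 further repressors, fell with both agonists at 3.5 h, Bhlhe41 by 1.02 ± 0.12 and 2.66 ± 0.12 and Ciart by 1.73 ± 0.18 and 1.81 ± 0.19 (VWF and LPS), and passed with neither at 16 h. Ciart with LPS at 16 h (1.17 ± 0.45, adjusted p = 0.0595) was called higher without LPS replicate 4 (1.43, adjusted p = 0.0176). Rora, which activates Arntl through the element that the NR1D proteins occupy, was lower in all 4 agonist comparisons, by 0.88 to 1.25. Arntl2, at 1.41 CPM or less in every culture, passed in none of these 4 with all cultures. It was called lower with VWF at 16 h without control replicate 5 (-1.10, adjusted p = 0.0144) and higher with LPS at 3.5 h without LPS replicate 3 (1.39, adjusted p = 0.0289).

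The D-box factors moved apart. Nfil3, the repressor that competes with DBP at D-boxes, was at 8.15 ± 1.15 CPM in controls, 24.7 ± 5.01 with VWF and 86.0 ± 12.1 with LPS at 3.5 h, and at 22.4 ± 3.61, 5.95 ± 0.753 and 64.1 ± 12.7 CPM at 16 h. It rose with VWF at 3.5 h by 1.62 ± 0.15 (adjusted p = 3.37e-06) and was 1.93 ± 0.14 lower at 16 h (adjusted p = 4.59e-06), while with LPS it rose by 3.39 ± 0.14 and 1.54 ± 0.16. With VWF, Nfil3 was higher and Dbp lower than in controls at 3.5 h, and Nfil3 lower and Dbp higher at 16 h. The call of Dbp at 16 h was weak, being lost without any of 7 single cultures (adjusted p 0.0617 to 0.102) and under scaling by library size (adjusted p = 0.119). Whether these changes are linked was not tested. Tef, a second D-box activator, fell at 3.5 h by 1.09 ± 0.10 with VWF and 1.56 ± 0.13 with LPS and passed with neither at 16 h (0.48 ± 0.18 and -0.39 ± 0.21), although without control replicate 5, whose 67.0 CPM was the highest of its group, the difference with VWF passed (0.69, adjusted p = 0.00016). Nampt, the NAD salvage enzyme under clock control that is also a known inflammatory gene, rose in all 4 comparisons by 1.08 to 2.85. Usp2, a deubiquitinase named here after its values had been seen, fell in controls with time by 2.24 ± 0.11 and at 3.5 h by 2.39 ± 0.15 with VWF and 4.69 ± 0.18 with LPS. At 16 h it was 0.83 ± 0.18 higher with VWF and 1.92 ± 0.17 lower with LPS.

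**Figure D4:**
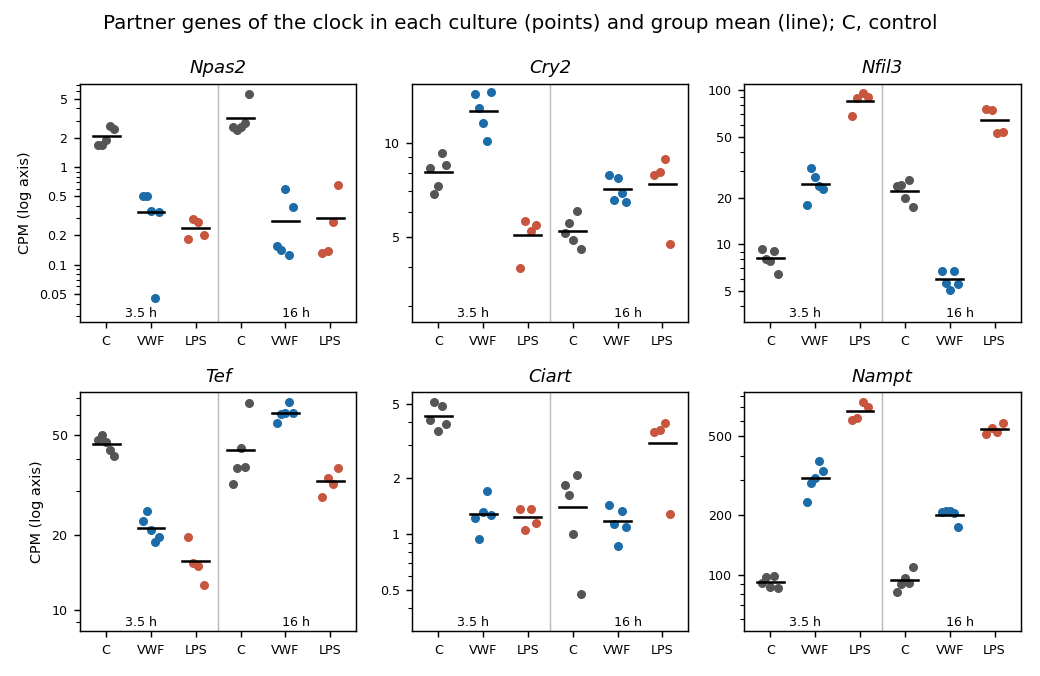
Level of 6 partner genes of the clock in CPM (log axis) in the 28 cultures, drawn as for the 10 members. Nfil3 with VWF lies above the controls at 3.5 h and below them at 16 h, while Npas2 lies below them with both agonists at both times.

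Likeness of pattern was described by the root mean square difference between the 6 group means of log2 CPM, each gene centred on its own mean, over 15916 other genes with a symbol. Per2 was the 21st nearest gene to Per1 (0.51), and Per1 the 31st nearest to Per2. The nearest to Per1 were Rhov (0.30) and Gm16278 (0.31), which range over 4.55 and 3.95 on the log2 scale between groups, against 3.93 for Per1. Zw10 and Tbc1d17 were nearest to Arntl (both 0.05), Tmppe (0.12) and Gm44949 (0.13) to Nr1d1, and Gpr65 (0.14) and Gm47567 (0.20) to Dbp. A small range makes a small difference easy to reach, since Arntl ranges over 1.25 and Nr1d1 over 1.80.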

How the data were processed

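BMDM RNA was sequenced by the authors as read pairs and aligned with STAR to GRCm38 (mm10), and the deposited values are whole-number counts per gene without normalization. The strand setting and annotation were not given in the sources used here. Samples were grouped by their labels, and 0 value columns were left unused. The labels call the cultures biological replicates, but what unit the numbers stand for, and whether cultures came from separate mice, is not given. The p-values therefore rest on the spread between these cultures.

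Genes passing edgeR's filterByExpr over the 28 cultures were tested with edgeR's quasi-likelihood test (R 4.3.3, edgeR 4.0.16, robust, TMM within each fit, groups compared only) and adjusted by Benjamini-Hochberg over 15923 genes. SE is the size of the log2 fold change divided by the square root of F. TPM used GENCODE exon lengths (GRCm38), found for 30143 of 30159 counted genes. The study used DESeq2 with a 10 TPM filter and 2-fold limit, which were alternatives here (DESeq2 1.42.0), with other scaling, no filter, a single fit, the replicate block and each culture left out. Leaving out both cultures that stood apart was added after seeing the data. The members and lists were chosen with earlier results of these data known. The 10 members were named in each comparison, with Cry2, Rora, Nfil3, Tef, Hlf, Bhlhe41, Arntl2, Npas2, Ciart and Nampt of the other clock genes and the 2 genes nearest in pattern to Arntl, Nr1d1, Per1 and Dbp. Total counts of 41131209 to 77699206 per culture set the precision. Same-numbered cultures deviated together with correlations over 0.1 in every pair for VWF and LPS at 16 h (4 pairs, 0.12 to 0.71), and for no other groups compared. No culture repeated another of its group (chi-square per degree of freedom from 17.3 up, 52 pairs). The script was tested on simulated data over 15923 genes. For the control drift, 75% of 2-fold and 92% of 4-fold changes were recovered, and for the difference between the VWF effects 45% and 94%.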

Additional observations from a re-analysis of the deposited data

Results flagged for a closer look

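A change of the agonist effect between 3.5 h and 16 h, by the test of the difference itself, was found for 7 of the 10 clock genes with VWF, 6 higher and 1 lower, where 11.5% of all genes were higher and 12.4% lower. On the log2 scale the effect at 16 h minus that at 3.5 h was -0.54 for Clock, 0.94 for Nr1d2, 1.87 for Per1, 1.42 for Per2, 0.87 for Per3, 0.58 for Cry1 and 2.24 for Dbp. With LPS it was found for 5 genes, all higher, where 18.5% of all genes were higher and 18.6% lower, at 0.58 for Nr1d2, 4.72 for Per1, 4.83 for Per2, 1.28 for Cry1 and 1.69 for Bhlhe40. The call of Cry1 with VWF was lost without any of 5 cultures (control replicate 2 and VWF replicates 1 and 4 at 3.5 h, control replicate 3 and VWF replicate 1 at 16 h), and that of Nr1d2 with LPS without any of 13 of the 18.

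A rule for single cultures far from their group flagged 3 of 60 combinations of gene and group, where chance gives about 1 in 20. Per1 was 11.7 CPM in control replicate 3 at 16 h, against 13.8 to 13.9 CPM in the others. Cry1 was 12.8 CPM in VWF replicate 1 at 16 h, against 10.2 to 10.9 CPM. Dbp was 7.20 CPM in control replicate 2 at 3.5 h, against 4.74 to 5.42 CPM. The rule does not catch every far culture. It did not flag Nr1d1 in LPS replicate 4 at 16 h, at 0.0783 CPM (3 counts) against 1.46 to 2.26 CPM in the others.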

How the results depend on the processing

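Over 775 values of the 10 clock genes under settings that keep every culture or leave out both that stood apart, 723 kept their side of the threshold, 30 lost and 20 gained a call, and 2 reversed, both under library size scaling (Nr1d2 with LPS at 3.5 h to -0.12, Cry1 for VWF against LPS at 16 h to 0.09). Among the values that kept their side, 14 changed sign without a call before or after. With each culture left out in turn, 86 of 1220 values lost and 13 gained a call. TPM is on another scale and served only to order the genes and to apply the study's filter.

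The study's 10 TPM filter tests fewer genes, 3 to 5 of the members among them. It left 4 members past the test for the control drift (8 without it), 4 for LPS at 3.5 h (10), 1 for VWF at 16 h (4), 3 for LPS at 16 h (7), 3 each for VWF against LPS at 3.5 h and 16 h (7 and 7) and 4 for the difference between the VWF effects (7). Over all genes it gave 3576 for VWF and 5384 for LPS at 3.5 h (5420 and 8503 without it), 2163 and 4293 at 16 h (3325 and 6818) and 4586 for VWF against LPS at 16 h (7535). Requiring over 2-fold as well left 1636 genes and 3 members for the drift (of 4821 genes), 2343 and 3 for VWF at 3.5 h, 4266 and 6 for LPS at 3.5 h, 1451 and 1 for VWF at 16 h, and 4223 and 4 for LPS at 16 h. It left 1918 genes for VWF against LPS at 3.5 h (of 5473), 4086 and 3 members at 16 h, 1999 and 3 for the difference between the VWF effects (of 3803) and 3805 genes for that of the LPS effects (of 5907).

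Leaving out 1 culture at a time gave 2487 to 5045 genes and 1 to 6 members for VWF at 16 h, and 4 to 7 members for VWF against LPS at 16 h. The highest count for VWF, 5045, is without control replicate 5, and is also the value without the cultures that stood apart.

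With the replicate block, 2 members passed for VWF at 16 h in place of 4, Dbp (adjusted p = 0.0746) and Per1 (adjusted p = 0.145) being lost. Clock with LPS at 3.5 h was lost too (adjusted p = 0.0949) and so was the rise of Dbp with time in LPS cultures (0.59, adjusted p = 0.0663), and Dbp was gained for the difference between the LPS effects (0.81, adjusted p = 0.0485). Of the groups compared, only VWF and LPS at 16 h had every same-numbered pair over 0.1, and there the block changed no call of a member. For control and VWF, 4 of 5 pairs were over 0.1 at 3.5 h (-0.38 to 0.66) and 3 of 5 at 16 h (-0.48 to 0.58). Whether the numbers pair those samples is therefore not settled.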
